A study of Homo sapiens with 4 samples.

Results

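The genes described here are 8 that drive or mark DNA replication: MCM2, MCM3, MCM4, MCM5, MCM6 and MCM7, the subunits of the replicative helicase, with PCNA, the sliding clamp, and E2F1, a transcription factor of S-phase genes. They were taken by symbol where a library's table names the locus on a main chromosome. Otherwise the row that best overlapped the gene's hg19 span was taken, with an overlap of at least 0.4 of the union of both. All 8 were found in each of 4 libraries, among 61158 loci listed in every library, and all 8 were among the 17049 loci tested. The tables name none of the MCM loci. PCNA was named in 2 libraries and E2F1 in 3. Every other row was placed by position, with an overlap of at least 0.905 of the union, and its named neighbours stood in the order of the RefSeq gene table for all 8 genes. The width of the locus was within 2-fold of the RefSeq gene for the other 7 and not for MCM5; list genes that failed this check were left out, while the rule for the 8 does not ask for it.

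RNA was sequenced from LNCaP, an established human prostate cancer cell line derived from a lymph node metastasis. Cells at passage 22 in RPMI medium with 10% FCS were transiently transfected, with Lipofectamine 2000, with a pReceiver-M72 vector carrying the CRYM open reading frame (2 libraries) or with its empty control (2 libraries). Total RNA was taken with TRIzol at 48 h, and GFP was watched to follow transfection, but the sources used here do not give the share of cells that took up plasmid. The CRYM protein, mu-crystallin, holds thyroid hormone in the cytosol, and the study asked how its overexpression changes the transcriptome of these cells.

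The MCM2 to MCM7 proteins form a ring that is loaded onto origins of replication in G1 and becomes the motor that unwinds DNA in S phase. Loading needs the origin recognition complex with CDC6 and CDT1, and firing needs CDC45 and the GINS proteins. PCNA, loaded by replication factor C, rings the DNA and holds polymerases on the template. E2F1 binds the promoters of many of these genes, its own among them, and is held inactive by the pocket protein RB1 until cyclin-dependent kinases phosphorylate RB1. In cultured cells these transcripts rise towards S phase, so they are widely used as marks of proliferation.

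Binding sites for E2F lie close to the start of many replication genes, and the stretches below are shown because the 8 genes moved together. RefSeq promoters (GRCh38.p14, 250 bases before to 50 after each annotated start) of 6 of the 8 genes were searched on both strands for TTTCGCGC, TTTGGCGC, TTTCCCGC and TTTGCCGC, versions of the E2F site. Each stretch is 100 bases, 5′ to 3′ on the gene's strand, with matches in capitals. MCM7 and PCNA have 3 and 2 annotated starts, and the first is shown.
MCM2, chr3:127598341-127598440, plus strand: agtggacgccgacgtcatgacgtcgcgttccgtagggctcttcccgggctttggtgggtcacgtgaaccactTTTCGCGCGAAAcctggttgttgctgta
MCM3, chr6:52284713-52284812, minus strand: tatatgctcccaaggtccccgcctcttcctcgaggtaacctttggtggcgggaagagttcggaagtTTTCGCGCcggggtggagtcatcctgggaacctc
MCM6, chr2:135876496-135876595, minus strand: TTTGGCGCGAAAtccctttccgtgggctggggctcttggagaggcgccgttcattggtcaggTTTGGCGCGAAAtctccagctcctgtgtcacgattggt
MCM7, chr7:100101368-100101467, minus strand: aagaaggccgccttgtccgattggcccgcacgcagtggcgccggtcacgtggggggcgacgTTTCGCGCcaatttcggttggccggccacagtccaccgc
PCNA, chr20:5126593-5126692, minus strand: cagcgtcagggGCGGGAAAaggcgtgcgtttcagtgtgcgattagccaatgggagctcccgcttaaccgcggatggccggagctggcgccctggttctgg
E2F1, chr20:33686356-33686455, minus strand: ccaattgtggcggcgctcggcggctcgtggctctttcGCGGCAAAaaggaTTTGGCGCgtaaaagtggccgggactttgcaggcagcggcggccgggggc

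All 6 genes searched held at least 1 match at the first or only annotated start, and 3.31% of the 35116 promoters in the table held one. That share counts each annotated start, while the 6 are counted by gene. MCM4 was left out of the search and MCM5 had no promoter entry, so the count covers neither. MCM2 had 2 overlapping matches, on opposite strands, at 2 to 13 bases after the start, counted as position 0. MCM6 had 4, as 2 overlapping pairs at −152 to −141 and −90 to −79. The matches of E2F1 lay at −33 to −26 and −20 to −13, and that of PCNA at −59 to −52. MCM3 had one across its start, at −4 to 3, and one at −174 to −167, outside the stretch shown. MCM7 had one at −9 to −2 and another at −187 to −180, also not shown. The 2 later starts of MCM7 and the later start of PCNA had no match. The box CCAAT, which the factor NF-Y binds, stood in the promoters of MCM3, MCM6, MCM7, PCNA and E2F1 and in 34.6% of all promoters. In the MCM7 stretch the box at −2 to 2 overlaps the E2F-type match. MCM2 had no such box in this window. A match is a string of letters and shows neither binding nor regulation in these cells.

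**Figure D1:**
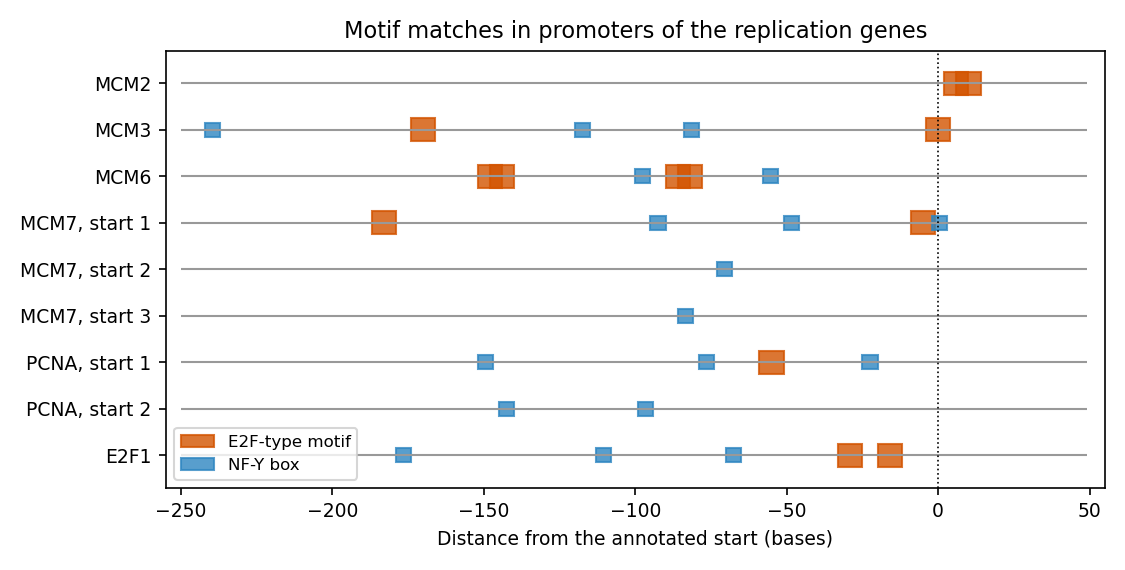
Motif matches in the RefSeq promoters of 6 replication genes, 1 line per annotated start. The horizontal axis gives the distance from the start in bases; tall boxes are E2F-type motifs and short boxes are NF-Y boxes. All 6 genes have an E2F-type match at the first or only start, and MCM2 has no NF-Y box.

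All 8 genes fell in CRYM cells, to between 1.51-fold and 2.2-fold below their level in empty vector cells. E2F1 had the largest fold and MCM6 the smallest. Levels are in FPKM, the fragments counted per kilobase of a transcript and scaled by a library's mapped fragments, as the authors deposited them. A difference is CRYM minus empty vector on the scale of log2(FPKM + 1), tested with limma and called at a Benjamini-Hochberg adjusted p under 0.05 over the 17049 tested loci. The test called 8 of 8 genes lower, against 9.9% of all tested loci called lower and 10.2% called higher. In all 8 genes both CRYM libraries lay below both empty vector libraries, as they did at 29.2% of tested loci; the opposite held at 38.5%. The median log2 difference of the 8 genes was −0.74 (SD 0.154 over genes), beside 0.05 for all tested loci, whose 5th and 95th percentiles were −0.81 and 0.90. Of all tested loci, 8.33% had a log2 difference at or below that of MCM6, the gene that fell least.

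These calls have a narrow base, with 2 libraries per group. With any 1 library left out, CRYM 1, CRYM 2, empty vector 1 or empty vector 2, log2 differences of the 8 genes were −1.10 to −0.55. No locus could be called with a single library in a group, so these fits cannot test the calls. The calls also depended on scaling. With libraries rescaled to the same total over tested loci, 0 of 8 passed (limma adjusted p 0.0521 to 0.122). Their log2 differences were then −1.06 to −0.56, beside −1.07 to −0.57 as deposited. With libraries rescaled to the same total FPKM, 8 of 8 were lower, but so were 8103 of all 17049 tested loci, with 428 higher. The labels speak of biological replicates without stating separate cultures, and p-values may then measure a spread that is technical. In bulk RNA, fewer cells of a kind, such as cells in S phase, and less RNA per cell cannot be told apart.

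**Figure D2:**
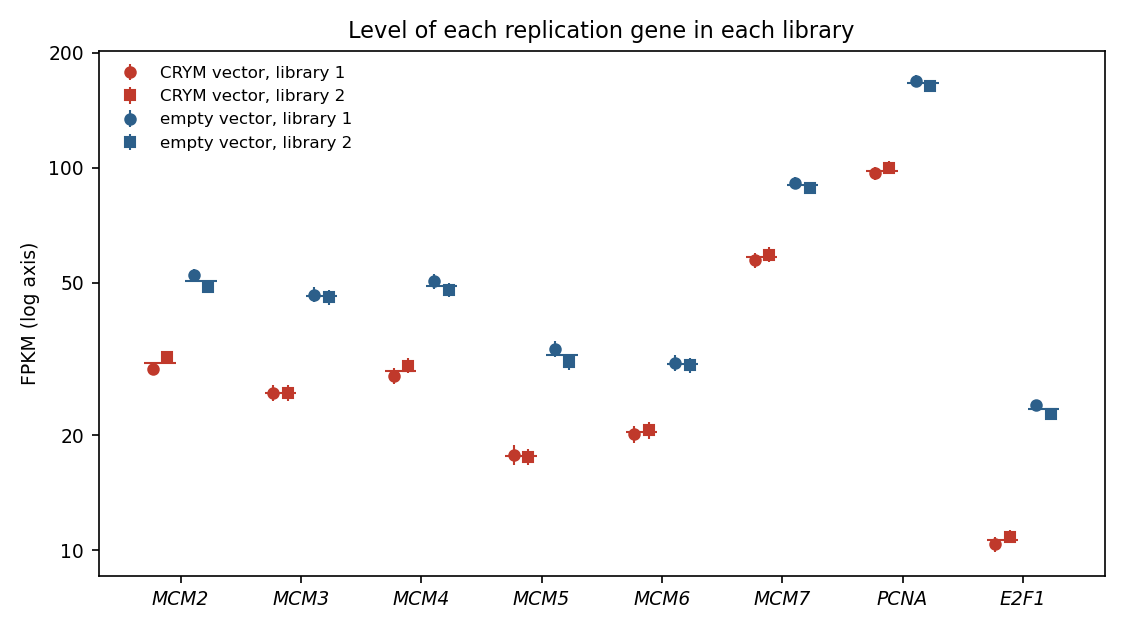
FPKM of the 8 replication genes in each library, on a log axis. Points are the 2 CRYM libraries (red, left) and the 2 empty vector libraries (blue, right), horizontal lines are group means, and vertical bars are the deposited intervals. In every gene both CRYM points lie below both empty vector points.

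E2F1 (hg19 chromosome 20, 32263489 to 32274210), the one transcription factor of the 8, had the lowest level. It was at 10.4 and 10.8 FPKM in the CRYM libraries, against 23.9 and 22.7 in the empty vector libraries. The groups stood far apart and the libraries within each were close. Mean levels were 10.6 ± 0.331 in CRYM cells and 23.3 ± 0.861 in empty vector cells (SD, n = 2 each), which is 2.2-fold lower. The log2 difference was −1.07 (SE 0.0501, 95% interval −1.23 to −0.91), with a limma adjusted p of 0.0138. Its interval does not overlap those of MCM6, MCM7, PCNA, MCM4 or MCM2 in log2 difference; it overlaps those of MCM3 and MCM5. Differences between genes were not tested. Short unnamed rows inside the E2F1 locus, of 121 to 409 bp, differed between libraries. They stood at 1.40 and 2.48 FPKM in CRYM library 1, 4.26 in CRYM library 2 and 32.6 in empty vector library 2. Empty vector library 1 listed no such row. The part of these rows in the E2F1 level was not tested.

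Among the helicase subunits, MCM5 (hg19 chromosome 22, from 35796056) had the largest difference. It was at 17.8 and 17.6 FPKM in the CRYM libraries, against 33.7 and 31.1 in the empty vector libraries, with no overlap. The means of 17.7 ± 0.151 and 32.4 ± 1.82 (SD, n = 2 each) are 1.83-fold apart, lower in CRYM cells (log2 difference −0.84, SE 0.0547, limma adjusted p = 0.0168). The assembled MCM5 locus was shorter in both CRYM libraries, 25368 bp, than in the empty vector libraries, 26949 and 26958 bp. These widths are spans on the genome and not transcript lengths. FPKM divides by transcript length, and the part of the difference in width in the MCM5 fold was not tested.

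MCM3 (hg19 chromosome 6, 52128807 to 52149679) followed, at 25.8 and 25.8 FPKM in the CRYM libraries and 46.6 and 45.9 in the empty vector libraries. Libraries of the same group differed little beside the gap between groups. Its means were 25.8 ± 0.0571 and 46.3 ± 0.541 (SD, n = 2 each), a 1.79-fold fall in CRYM cells with a log2 difference of −0.82 (SE 0.0300, limma adjusted p = 0.0115).

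MCM4 and MCM2 had similar values to each other. MCM4 (hg19 chromosome 8, 48872745 to 48890720) had 28.6 and 30.4 FPKM in the CRYM libraries, against 50.4 and 48.0 in the empty vector libraries. MCM2 (hg19 chromosome 3, from 127317066) had 29.8 and 32.0 FPKM in the CRYM libraries, against 52.5 and 48.7 in the empty vector libraries. In both, CRYM library 2 was the higher of its group and empty vector library 1 the higher of its own, and the groups stayed apart. MCM4 averaged 29.5 ± 1.32 in CRYM cells and 49.2 ± 1.75 in empty vector cells (SD, n = 2 each), 1.67-fold lower (log2 difference −0.72, SE 0.0539, limma adjusted p = 0.0194). MCM2 averaged 30.9 ± 1.5 and 50.6 ± 2.68 in the same order, 1.64-fold lower (log2 difference −0.69, SE 0.0646, limma adjusted p = 0.0238). MCM2 had the largest SE of the 8 genes.

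MCM7 (hg19 chromosome 7, 99690351 to 99699563), the most abundant subunit in FPKM, had 57.4 and 59.3 in the CRYM libraries, against 91.5 and 88.4 in the empty vector libraries. MCM6 (hg19 chromosome 2, 136597196 to 136633996) had 20.1 and 20.6 FPKM in the CRYM libraries, against 30.96 and 30.4 in the empty vector libraries. Neither gene's groups overlapped, though these 2 subunits fell least. MCM7 averaged 58.3 ± 1.32 in CRYM cells and 90.0 ± 2.2 in empty vector cells (SD, n = 2 each), 1.54-fold lower (log2 difference −0.62, SE 0.0387, limma adjusted p = 0.0161). MCM6 averaged 20.4 ± 0.312 in CRYM cells and 30.7 ± 0.365 in empty vector cells, 1.51-fold lower (log2 difference −0.57, SE 0.0335, limma adjusted p = 0.0157).

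PCNA (hg19 chromosome 20, 5095599 to 5107272) was the most abundant of the 8 in FPKM. It had 96.7 and 100.1 in the CRYM libraries, against 169 and 164 in the empty vector libraries. The gap between the groups was many times the spread within them. Means of 98.4 ± 2.35 and 167 ± 3.50 (SD, n = 2 each) put it 1.69-fold lower in CRYM cells (log2 difference −0.75, SE 0.0388, limma adjusted p = 0.0142). PCNA has processed pseudogene copies in the human genome, and the sources used here do not say how reads shared with them were assigned. The intronic SNORA26 row inside PCNA was at 0 and 6.60 FPKM in the CRYM libraries and at 3.49 and 2.99 in the empty vector libraries, each with a deposited interval that reaches 0.

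The order of levels, which FPKM allows because it is per length, was nearly the same in both groups. PCNA stood first, then MCM7, then MCM2 and MCM4, which overlapped each other in both groups, then MCM3. E2F1 stood last. MCM6 and MCM5 changed places: MCM5 was below MCM6 in both CRYM libraries, at 0.882 and 0.853 of its FPKM, and above it in both empty vector libraries, at 1.09 and 1.02. Their deposited intervals overlapped in empty vector library 1 (MCM5 32.0 to 35.3, MCM6 29.5 to 32.4). They did so too in empty vector library 2 (29.6 to 32.6 and 29.0 to 31.9). The assembled MCM5 locus also differed in width between groups. E2F1 was at 0.515 and 0.527 of the MCM6 level in the CRYM libraries, against 0.774 and 0.747 in the empty vector libraries. The MCM2 to MCM4 ratio was close to 1 throughout, at 1.05 and 1.05 in the CRYM libraries, against 1.04 and 1.01 in the empty vector libraries.

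The summed FPKM of the 6 subunits was 179.5 and 185.6 in the CRYM libraries, against 305.7 and 292.4 in the empty vector libraries. The sum averaged 182.6 ± 4.36 in CRYM cells and 299.1 ± 9.36 in empty vector cells (SD, n = 2 each), 1.64-fold lower. An exact two-sided permutation test of such a sum cannot go below p = 0.333 with 2 libraries against 2. Within the sum, MCM7 made up 32.0% and 31.9% in the CRYM libraries and 29.9% and 30.2% in the empty vector libraries. MCM6 made up 11.2% and 11.1% in the CRYM libraries and 10.1% and 10.4% in the empty vector libraries. The shares of MCM3 and MCM5 were lower in both CRYM libraries, and that of MCM2 overlapped between groups. MCM4 made up 15.9% and 16.4% in the CRYM libraries, against 16.5% and 16.4% in the empty vector libraries, which is nearly the same. These shares are descriptions without a test.

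**Figure D3:**
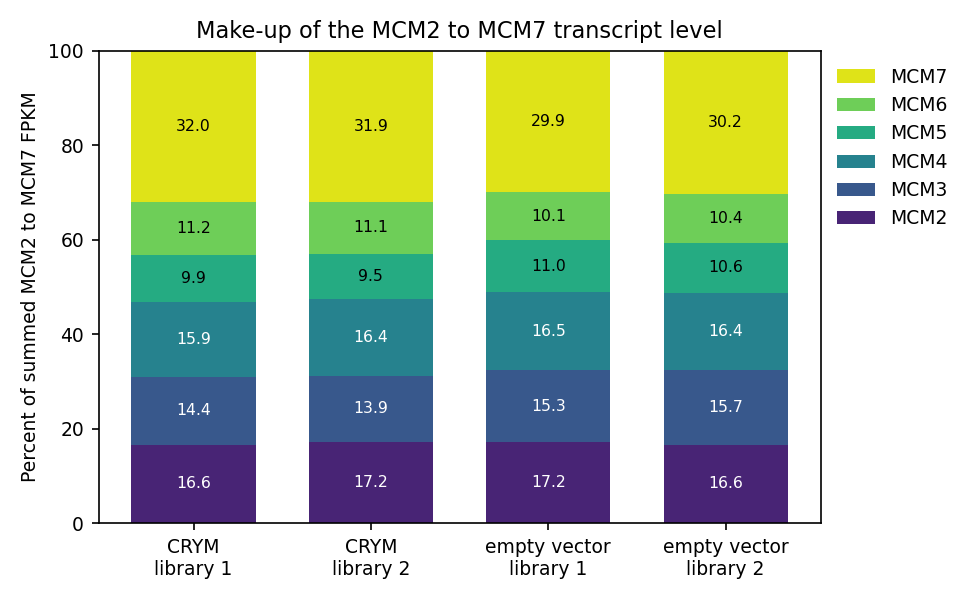
Share of each subunit in the summed FPKM of MCM2 to MCM7 in the 2 CRYM libraries (left) and the 2 empty vector libraries (right), in percent. MCM7 and MCM6 take a larger share in both CRYM libraries, MCM3 and MCM5 a smaller one.

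The fragment numbers implied by the deposited intervals did not move with FPKM at most of these genes. Taken as 2 SD of counting error above and below the value, each interval corresponds to a number of fragments. Those implied numbers for E2F1 were 1893 and 2538 in the CRYM libraries, against 5276 and 5830 in the empty vector libraries, and at equal depth the ratio of CRYM to empty vector was 0.446, near the FPKM ratio of 0.455. MCM7 gave a ratio of 0.692, against 0.649 in FPKM. The other 6 genes did not: MCM2, MCM3, MCM4, MCM5, MCM6 and PCNA gave 0.912, 0.979, 0.974, 0.924, 0.979 and 1.04 at equal depth, while their FPKM ratios were 0.546 to 0.663. Over all loci called lower with an interval in every library, 1626 in all, the median ratio of implied fragments was 0.870 and that of FPKM 0.695. Those loci were chosen by a fall in FPKM. Over all 16340 tested loci with an interval in every library, the medians were 1.102 for implied fragments and 1.042 for FPKM. Of these loci, 31.6% had a ratio of implied fragments below 1.

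The implied numbers were checked within a group, where depth and FPKM predict the ratio of library 2 to library 1. For E2F1 the ratio was 1.34 in the CRYM libraries, with 1.33 predicted, and 1.11 in the empty vector libraries, with 1.09 predicted. For PCNA it was 1.02 in the CRYM libraries, with 1.32 predicted, and 1.01 in the empty vector libraries, with 1.12 predicted. MCM3, MCM4, MCM6 and MCM7 also fell short of the prediction in both groups, and MCM2 in the CRYM libraries. The assembled MCM5 locus differs in width between groups. For MCM5 the ratio was 1.34 in the CRYM libraries, with 1.26 predicted, and 1.02 in the empty vector libraries, with 1.06 predicted. Where the implied numbers did not track depth, their ratio does not show whether reads fell. At MCM5 they came closer to the prediction in both groups than at PCNA, and its ratio of implied fragments, 0.924, was not that of its FPKM, 0.546. The reads are not analysed here, and the cause was not tested.

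**Figure D4:**
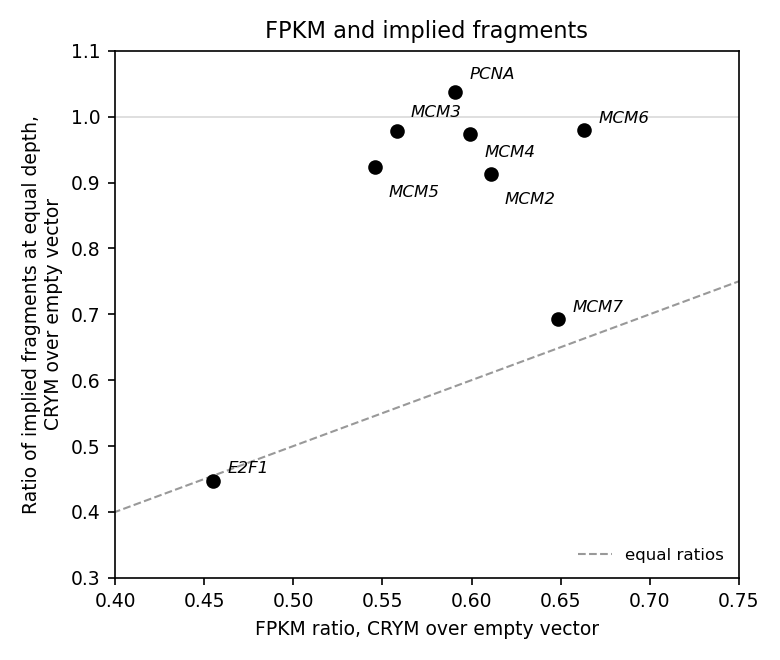
Ratio of CRYM to empty vector in fragments implied by the deposited intervals at equal depth (vertical) against the same ratio in FPKM (horizontal), 1 point per gene; the dashed line marks equal ratios. E2F1 lies at the line (0.446 and 0.455) and MCM7 near it, while the other 6 genes lie at 0.912 to 1.04 on the vertical axis.

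Neighbouring transcripts that share a promoter region or an intron with a member gave further values. TPRA1, whose locus overlaps that of MCM2 by 29 bp at its start, had 16.1 and 15.7 FPKM in the CRYM libraries and 22.0 and 22.3 in the empty vector libraries, a log2 difference of −0.46 (limma adjusted p = 0.0201). PRKDC, which encodes the catalytic subunit of DNA-dependent protein kinase and lies head to head with MCM4, had 32.3 and 32.3 FPKM in the CRYM libraries and 37.1 and 36.9 in the empty vector libraries (log2 difference −0.19, limma adjusted p = 0.0412). Both were called lower, with smaller log2 differences than MCM2 and MCM4, a gap that was not tested. PRKDC did not pass with no filter on low FPKM (limma adjusted p = 0.0783) or with quantile normalization (0.0795), and neither passed after rescaling to the same total over tested loci. AP4M1, beside MCM7, was listed at 0 in all 4 libraries and was not tested. These neighbours were chosen after the members' values were seen. Of the 3 microRNAs in an intron of MCM7, MIR106B was tested and did not pass, with 30.6 and 24.0 FPKM in the CRYM libraries and 0 and 22.2 in the empty vector libraries. Polyadenylated RNA does not measure mature microRNAs, and at rows this short a few reads make such values.

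Other replication genes fell with the 8. Of 49 genes in 3 lists, 37 were tested, and 30 were lower, 0 higher and 7 not past the threshold, beside 9.9% of all tested loci called lower. All 37 had a log2 difference below 0. Where loci had to overlap their spans by at least 0.8 of the union, 25 of 31 were lower. With no filter on low FPKM 21 of 37 were lower, beside 837 of all 35294 loci tested that way. With libraries rescaled to the same total over tested loci 1 of 37 was, beside 138 of all 17049. All 37 log2 differences stayed below 0 in both. Of the 19 genes of origin loading and firing, 17 were tested and 14 were lower, with a median log2 difference of −0.61; GMNN, CDC7 and GINS4 did not pass. CDT1, which brings the helicase to origins, had 26.7 and 24.8 FPKM in the CRYM libraries and 47.3 and 45.4 in the empty vector libraries (log2 difference −0.83, limma adjusted p = 0.0169). ORC6, a subunit of the origin recognition complex, had 12.7 and 14.4 FPKM in the CRYM libraries and 23.02 and 23.5 in the empty vector libraries (log2 difference −0.74, limma adjusted p = 0.0263). MCMBP, which binds the MCM proteins, and TIMELESS, a fork protection protein, fell by 0.53 and by 0.61 on the log2 scale.

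Among 22 genes of the clamp loader, the polymerases and other fork proteins, 16 were tested, 12 were lower, 0 higher and 4 (LIG1, POLE2, PRIM1 and CHAF1A) not past, with a median of −0.60. This stands beside 9.9% of all tested loci called lower. RFC2, a subunit of the loader that opens PCNA, had 23.5 and 27.3 FPKM in the CRYM libraries and 42.7 and 39.8 in the empty vector libraries (log2 difference −0.68, limma adjusted p = 0.0382). Its call was lost with no filter (limma adjusted p = 0.0677) and with quantile normalization (0.0502). The 3 subunits of replication protein A, which coats single-stranded DNA, also fell: RPA1, RPA2 and RPA3 had log2 differences of −0.27, −0.36 and −0.48, and RPA1 did not pass with no filter (limma adjusted p = 0.0561). The row placed as PRIM1 was merged with neighbouring sequence and is uncertain.

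Of 8 genes of deoxynucleotide supply, 4 were tested and all 4 were lower, with a median of −0.72. The share of all tested loci called lower was 9.9%. TK1, thymidine kinase, had 51.1 and 53.7 FPKM in the CRYM libraries, against 105.3 and 95 in the empty vector libraries. RRM1, the large subunit of ribonucleotide reductase, had 49.6 and 49.7 in the CRYM libraries, against 79.7 and 77.2 in the empty vector libraries. The groups of both genes stood apart. Log2 differences were −0.92 for TK1, −0.65 for RRM1 and −0.57 for DUT, which removes dUTP, with limma adjusted p of 0.0142 to 0.0202.

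Among the other E2F and pocket protein genes, 7 of 11 log2 differences were below 0. All 11 were tested; 5 were lower, 1 was higher and 5 did not pass (E2F3, E2F6, TFDP1, RB1 and RBL2), with a median of −0.30, beside 9.9% of all tested loci called lower and 10.2% called higher. The 5 calls lower were lost, 0 of 11, with no filter on low FPKM and again with libraries rescaled to the same total over tested loci. E2F7 and E2F8, repressor E2Fs that E2F1 itself induces, had log2 differences of −0.72 and −0.66 (limma adjusted p = 0.0348 and 0.0473). E2F7 had 1.89 and 2.02 FPKM in the CRYM libraries and 4.19 and 3.56 in the empty vector libraries. E2F4, the abundant repressor of resting cells, had 24.8 and 26.1 FPKM in the CRYM libraries and 32.3 and 30.9 in the empty vector libraries, a log2 difference of −0.30 that also did not pass with quantile normalization (limma adjusted p = 0.0575). RBL1, the pocket protein p107, fell by 0.46 on the log2 scale. The call higher was E2F5, at 2.45 and 2.63 FPKM in the CRYM libraries and listed at 0 in both empty vector libraries, so no fold is given. E2F5 passed the filter only through the CRYM libraries, so a call lower was not possible for it.

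Of 11 cyclins, kinases and inhibitors of the G1 to S step, 10 were tested, 5 were lower and 0 higher, with a median of −0.49. Of all tested loci, 9.9% were called lower. With no filter 3 of 11 were lower, beside 837 of all 35294 loci tested that way. After rescaling to the same total over tested loci 0 of 10 were, beside 138 of all 17049. CCNA2, the cyclin A of S phase, had 17.9 and 19.1 FPKM in the CRYM libraries and 30.7 and 29.8 in the empty vector libraries (log2 difference −0.68, limma adjusted p = 0.0198). CCND1 and CCND3, D-type cyclins, fell by 0.38 and by 0.53. CDKN1A, which encodes the inhibitor p21, was lower as well, at 62.3 and 62.3 FPKM in the CRYM libraries and 82.3 and 88.4 in the empty vector libraries (log2 difference −0.45, limma adjusted p = 0.0287). CDKN1A did not pass with no filter (limma adjusted p = 0.0523) or with quantile normalization (0.0502). The list thus holds both drivers and an inhibitor of the cycle among its falls.

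Mitotic genes, which peak after replication, were lower in 14 of 15 tested of 17 listed, with a median of −0.52, beside 9.9% of all tested loci called lower; CENPF did not pass. With no filter 10 of 15 were lower, beside 837 of all 35294 loci tested that way. After rescaling to the same total over tested loci 1 of 15 was, beside 138 of all 17049. CDK1, the mitotic kinase, had 69.0 and 69.3 FPKM in the CRYM libraries and 92.3 and 90.2 in the empty vector libraries (log2 difference −0.40, limma adjusted p = 0.0202). CCNB1, its cyclin, fell by 0.52, and UBE2C and CDC20, which work with the anaphase-promoting complex, by 0.74 and by 0.71; UBE2C did not pass with no filter (limma adjusted p = 0.0597).

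**Figure D5:**
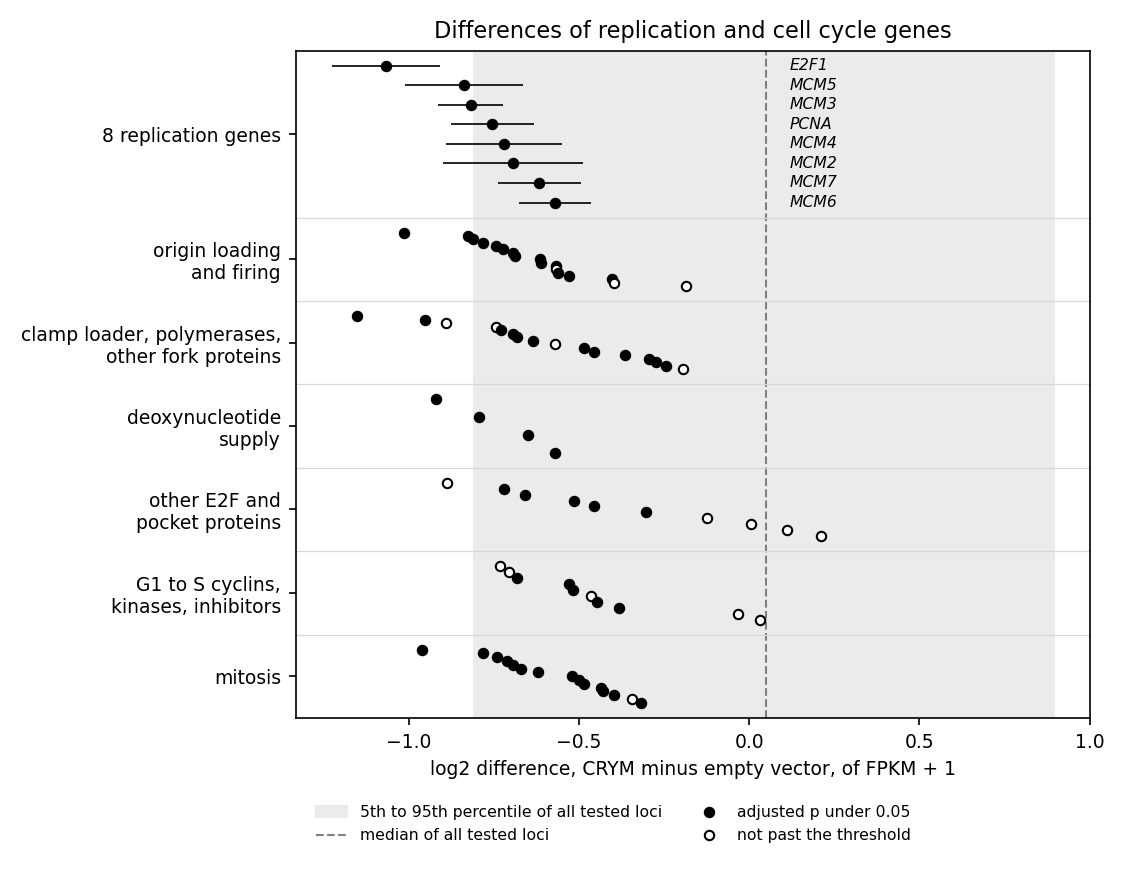
Log2 difference, CRYM minus empty vector, of FPKM + 1 for the 8 replication genes (bars are 95% intervals) and for the tested genes of 6 lists. Filled points have an adjusted p under 0.05, the shaded band runs from the 5th to the 95th percentile of all tested loci (−0.81 to 0.90) and the dashed line is their median (0.05). E2F5, listed at 0 in both empty vector libraries, is not drawn. Every tested gene of the 3 replication lists and of the mitosis list lies below 0.

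The 5 named protein-coding loci with the profile most like the mean profile of the 8 genes were FAM101B, UBE2S, GSTA2, SGK223 and ATP5I. Likeness was the Euclidean distance of centred log2(FPKM + 1) values over 4 libraries, among 902 named candidates, and ran from 0.0378 to 0.0480 for the 5. UBE2S, a ubiquitin-conjugating enzyme of the anaphase-promoting complex, had 46.0 and 47.7 FPKM in the CRYM libraries and 79.9 and 79.5 in the empty vector libraries. With 4 libraries, such a profile is mainly the difference between the groups.

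The wider state of the libraries bears on these values. CRYM, the gene on the vector, had 65.3 and 72.5 FPKM in the CRYM libraries and 1.17 and 0.977 in the empty vector libraries. Relative to empty vector library 1, depth was 0.842 and 1.07 in the CRYM libraries and 1.15 in empty vector library 2. Luminal markers fixed for LNCaP were present: 10 of 10 were tested, with 4 lower and 1 (FOLH1) higher, and their summed FPKM was 2036 and 2076 in the CRYM libraries and 3401 and 3323 in the empty vector libraries. Of all tested loci, 9.9% were called lower and 10.2% higher. KLK3, which encodes prostate-specific antigen, had 863 and 900.4 FPKM in the CRYM libraries and 1939 and 1874 in the empty vector libraries. TMPRSS2, also androgen-induced, fell by 2.1 on the log2 scale. FOLH1 was higher as deposited (log2 difference 0.52) and at −0.08 after rescaling to the same total FPKM. The 3 fibroblast or mesenchymal markers summed to 29.3 and 30.2 FPKM in the CRYM libraries and 16.4 and 14.3 in the empty vector libraries, mostly VIM, which rose (log2 difference 1.04), while COL1A1 did not pass. The 3 basal markers summed to 2.02 and 1.44 FPKM in the CRYM libraries and 3.30 and 4.02 in the empty vector libraries, and KRT14, the one tested, did not pass. The immune marker PTPRC was at most 0.0342 FPKM and the endothelial marker CLDN5 at most 0.275 in any library. The part of these marker shifts in the fall of the replication genes was not tested.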

How the data were processed

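Polyadenylated RNA of 4 LNCaP libraries was sequenced as single reads of 50 bp from a stranded kit, per the labels' protocols. Cufflinks 2.2.1, Cuffdiff, Bowtie2 2.2.9 and TopHat2 2.1.1 appear beside hg19, per the submitters' processing notes, without roles. Whether strand was used in counting they do not state. The deposited values are FPKM with interval bounds and a status, per the file headers, in 1 table per library with 89428 to 103044 rows.

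Rows were joined between libraries by mutual best overlap of at least 0.4 of the union, which gave 61158 loci. Unnamed list genes were placed by hg19 spans written from general knowledge, and kept only where named neighbours stood in RefSeq order. Coordinates are counted from 1. Loci were tested where 2 or more libraries reached an FPKM of 1 and all 4 had status OK (64 left out by status), with limma 3.58.1 (R 4.3.3) on log2(FPKM + 1), a pseudocount of 1, with a trend, two-sided, with Benjamini-Hochberg adjusted p-values. The log2 scale understates changes of low genes; folds are ratios of mean FPKM. The fit was tested on simulated data. FPKM is no count, so absolute depth is unknown; relative depth came from the steps of the lowest values at loci of 60 to 62 bp, all whole multiples within 0.02.

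The 8 genes and the lists were chosen with earlier results of these data known. Named are the 8 genes, CRYM, up to 4 tested genes per list (those past the threshold first, then by mean FPKM), and the 5 nearest profiles; some genes the rule takes are not reported here. Genes of a list that did not pass or stood alone, and the neighbours of MCM2 and MCM4, were named after their values were seen. Alternatives covered the pseudocount, filter, status, scaling, join, variance trend, replicate block and each library left out; rescaling to the total over tested loci and a minimum width of 300 bp were chosen after seeing the data. Python 3.11.15, numpy 2.4.6, pandas 2.3.3, matplotlib 3.10.9 and bedtools 2.31.1 were used.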

Additional observations from a re-analysis of the deposited data

How the results depend on the processing

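The alternatives were refits of the same 4 libraries and not independent checks. As both CRYM libraries lay below both empty vector libraries in each of the 8 genes, leaving 1 out could not change the sign. The 8 replication genes had log2 differences below 0 in 134 of 134 values over the alternatives run. They were called lower, 8 of 8, with a pseudocount of 0.1, no filter, FPKM of at least 5, any status, no trend, an overlap of 0.8, loci of at least 300 bp, and rescaling to the same total FPKM, the median ratio or quantiles. Of all loci, 1701 of 17049 were lower with that pseudocount and 837 of 35294 with no filter. With FPKM of at least 5, 1714 of 10969 loci were lower, with any status 1708 of 17113 and with no trend 1517 of 17049. An overlap of 0.8 gave 2093 of 13949, and 300 bp gave 2291 of 14540. The same total FPKM gave 8103 of 17049, the median ratio 2005 and quantiles 1434. With rows joined by identical position, 6 of 6 were lower, beside 1783 of all 10091 loci, and MCM2 and MCM5 had no row. With the libraries rescaled to the same total over tested loci, an alternative added after the data were examined, 0 of 8 passed (limma adjusted p 0.0521 to 0.122), and 194 loci were higher and 138 lower, against 1739 and 1688 as deposited. With any 1 library left out, the log2 differences of the 8 genes were −1.10 to −0.55. A lone library is then assumed to vary like the other group. No locus could be called in these fits, so they cannot test the calls. With the replicate number as a block, 0 loci and 0 of 8 genes passed (limma adjusted p 0.119 to 0.121 for the 8), with 5169 loci at an unadjusted p under 0.05. Deviations of same-numbered libraries correlated at 0.0360, so the numbers are not taken to pair the samples. With no filter, 639 loci were higher and 837 lower. Rescaling to the same total FPKM moved the median locus to a log2 difference of −0.45, gave 428 higher and 8103 lower, and put the 8 genes at −1.63 to −1.15. Where no table shows a cause, the cause was not tested. Depth, known only in relation between libraries, and 2 libraries per group limit what can be called.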
